A study of Mus musculus with 24 samples.

Results

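The aging comparison of the dentate gyrus methylome under standard housing was described here by 1-kb tiles, fixed windows of 1000 bases along the 19 autosomes. A CpG row, one cytosine on one strand, was assigned to its window by its position, and the rows of a window were averaged within each mouse. A tile was kept when it held at least 3 CpG rows and when at least 6 mice of each age group had a value, and the mouse was the replicate throughout. Of 137950 windows that held any autosomal row, 47188 were kept, with 456302 of the 694379 rows of the table (median 6 rows, at most 115), and 16703 of them had a value in all 16 mice. DNA came from the dentate gyrus of female C57BL/6JRj mice and was profiled by reduced representation bisulfite sequencing (RRBS), in which unmethylated cytosines read as thymine. The young STD group held 8 mice aged 3 months and the aged STD group 8 mice aged 17 months, all from standard cages. Another 8 mice aged 17 months from an enriched environment (aged ENR) entered none of the tests below, apart from alternatives that are named. Their values are quoted beside single tiles and beside the mean level over shared tiles. The tissue was bulk, so a changed level within cells and a changed mixture of cell types cannot be told apart.

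Cytosine methylation in mammals sits mostly on CpG dinucleotides. Promoters rich in CpGs are usually unmethylated, whereas introns and intergenic DNA are usually methylated, and tiles at intermediate levels often mix methylated and unmethylated molecules. The dentate gyrus consists largely of granule neurons and keeps a niche of neural stem cells whose activity declines with age. With age, methylation in many tissues is known to drift in both directions, with gains at CpG-rich regulatory regions and losses elsewhere, and to differ more between individuals.

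One tile of 47188 passed the limma test with adjusted p under 0.05 and a difference over 10 percentage points (0.00212%), and it was lower in aged STD mice. It lay on chromosome 5 in an intron of Ap1s1, which encodes a small subunit of the AP-1 clathrin adaptor complex. Sequences of 3 of the leading tiles are given here, 2 lower and 1 higher in aged STD mice, to show the cytosines that each mean rests on. They are read from the plus strand of GRCm38, and capitals mark the CpGs with a row in the table.
Ap1s1, lower in aged STD mice, chr5:137036366-137036588: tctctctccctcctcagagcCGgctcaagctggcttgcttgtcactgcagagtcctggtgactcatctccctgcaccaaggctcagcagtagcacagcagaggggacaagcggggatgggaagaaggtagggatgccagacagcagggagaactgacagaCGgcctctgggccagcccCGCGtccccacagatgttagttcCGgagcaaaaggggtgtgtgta
Gm2229, lower in aged STD mice, chr3:47387343-47387430: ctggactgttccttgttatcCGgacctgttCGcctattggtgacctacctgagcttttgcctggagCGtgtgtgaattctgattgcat
Gm17032, higher in aged STD mice, chr12:106302245-106302527: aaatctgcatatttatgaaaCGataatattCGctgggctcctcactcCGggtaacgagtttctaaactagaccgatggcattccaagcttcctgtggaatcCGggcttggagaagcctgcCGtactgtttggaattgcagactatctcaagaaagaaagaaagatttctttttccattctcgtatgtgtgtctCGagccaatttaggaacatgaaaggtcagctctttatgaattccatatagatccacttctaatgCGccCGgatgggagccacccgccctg
The Ap1s1 window holds all 5 measured CpGs of its tile in 223 bases, with 60.1% G and C. The Gm2229 window holds 3 measured CpGs, and the Gm17032 window holds 8 of the 10 of its tile.

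The Ap1s1 tile (chromosome 5, 137036000 to 137036999, GRCm38; gene ENSMUSG00000004849, minus strand) had its midpoint 1105 bp downstream of the nearest start site. In young STD mice it read 100% in replicates 1, 2, 3 and 8, 80% in replicate 4, 75% in replicate 7 and 53.6% in replicate 5, with no value in replicate 6. In aged STD mice it read 25% in replicates 1 and 3, 14.7% in replicate 4 and 0% in the other 5. The groups did not overlap, and the mean went from 86.9% ± 18.2 (SD, n = 7) to 8.08% ± 11.6 (SD, n = 8), a difference of -78.9 points with a standard error of 7.50 (limma, adjusted p = 0.00232). The 6 aged ENR mice with a value averaged 10.2% ± 16.9 (SD). Without aged STD replicate 5 the difference was -77.7 points (adjusted p = 0.00936).

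The 5 rows of this tile were not read in the same mice. The plus-strand row at 137036386 had a value in 4 young and 5 aged STD mice, and the 4 minus-strand rows between 137036527 and 137036568 had values in 4 mice of each group. At the plus-strand row 3 young mice read 100% and 1 read 0%, and all 5 aged mice read 0%. At the minus-strand rows the young means were 86.0%, 90.6%, 91.0% and 61.0%, and the aged means 0%, 19%, 25% and 24.3%. In young replicate 4, which had all 5 rows, the plus-strand row read 0% and the minus-strand rows read 100%, so the rows of the tile disagreed within that mouse. Of the 4 other tiles kept within 10 kb, 3 nearest Vgf, which encodes a secreted neuropeptide precursor, and 1 nearest another start site of Ap1s1 had means between 0.34% and 6.88% in both age groups, with differences from -3.80 to 2.01 points.

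Apart from Ap1s1, no tile passed, and the second smallest adjusted p was 0.161. At an unadjusted p under 0.05, 769 tiles (1.63%) were higher and 971 (2.06%) lower in aged STD mice. By size alone, 3497 tiles (7.41%) were higher by over 10 points and 4912 (10.4%) lower, and 339 and 642 passed 25 points. The median difference was -0.05 points, and 4 tiles (0.00848%) higher and 9 tiles (0.0191%) lower in aged mice had groups that did not overlap.

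**Figure D1:**
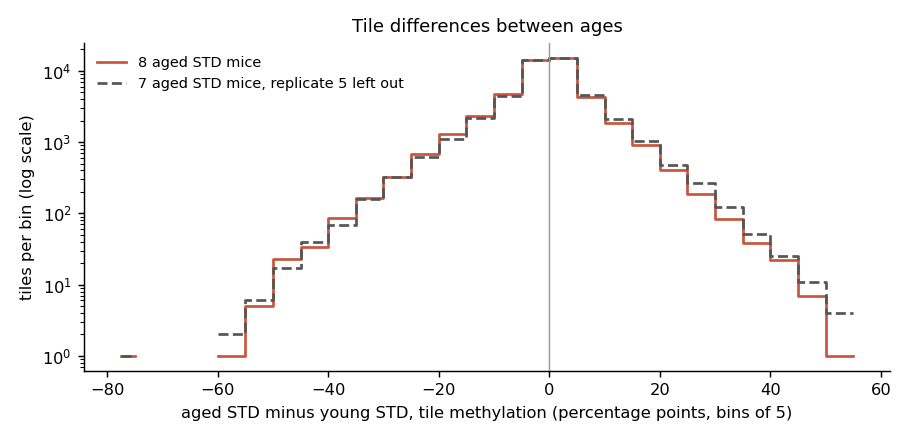
Number of tiles (log scale) by the difference between aged STD and young STD mean methylation in bins of 5 percentage points, with all 8 aged STD mice (solid) and without aged STD replicate 5 (dashed), over the same 47188 tiles. Beyond 10 points, the solid line counts 4912 tiles lower and 3497 higher in aged mice, and the dashed line 4520 lower and 4105 higher.

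The excess of lower tiles moved with single libraries. Aged STD replicate 5 had a value in 65.5% of the tiles whose level was over 80%, whereas the other aged STD mice had one in 81.9% to 99.5% and the young STD mice in 87.9% to 96.8%. In tiles under 20% it had a value in 94.1%, within the range of the other aged mice. Over the same tiles, leaving it out changed the split at 10 points from 41.6% higher to 47.6% higher (4105 against 4520 tiles), and refitting on the 41938 tiles kept without it gave 776 higher and 767 lower tiles at an unadjusted p under 0.05. Without young STD replicate 8, the 41365 tiles kept gave 708 higher and 768 lower ones at that p, and 3219 higher and 4045 lower by over 10 points. Covered tiles per mouse ranged from 42488 to 45599 in young and from 38237 to 46933 in aged STD mice.

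The precision of a tile depended on its level and its number of rows. The median width of the 95% limma interval was 10.9 points to each side of the difference. It was 4.63 points in tiles under 20%, 27.7 points in tiles at 20 to 80% and 11.1 points in tiles over 80%. The interval lay within 10 points of 0 in 17408 tiles (36.9%) and within 25 points in 32681 (69.3%), so in those tiles a difference of 25 points lay outside the interval, and in the other 30.7% it was not excluded at this coverage. In tiles at 20 to 80% the interval stayed within 25 points in only 14.8% of 10682 tiles. These tiles made up 22.6% of all tiles, but 54.1% of those higher and 60.9% of those lower by over 10 points. Promoter tiles (midpoint within 1 kb of a start site) were 36.4% of all tiles and 16.1% and 15% of those sets. Tiles with the base composition of CpG islands (at least 50% G and C and an observed to expected CpG ratio of at least 0.6) were 19.2% of all tiles and 1.92% and 1.73% of those sets.

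Neighbouring tiles had little in common in their differences. Among 6946 pairs of adjacent tiles, the differences had the same sign in 49.8% of pairs, and Pearson's r across pairs was 0.03. For the 322 adjacent pairs in which both tiles were at 20 to 80%, the same sign was seen in 54.0% with r = 0.01, and in 50.3% with r = -0.03 without aged STD replicate 5. These are descriptions across tiles of the same mice, and tiles are not independent replicates.

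Among the 10 tiles lower in aged STD mice with the smallest p, 2 others had no overlap of the groups and an adjusted p under 0.2. The intergenic tile nearest the pseudogene Gm2229 (chromosome 3, 47387000 to 47387999, 72965 bp from its start) read 100% in each of 7 young mice. The 6 aged STD mice with a value lay between 60.6% and 85.5% (median 70.7%). The groups stayed apart, with a difference of -27.2 points and a standard error of 3.61 (adjusted p = 0.161), and the aged ENR mean was 95.2% ± 6.57 (SD, n = 7).

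The tile in an exon of Flt4, the receptor tyrosine kinase VEGFR3 that binds VEGF-C and marks lymphatic endothelium, held 17 rows and was island-like (chromosome 11, 49634000 to 49634999). Young STD mice lay between 8.05% and 22.2% (median 12.6%), and aged STD mice between 0% and 5.30% (median 2.87%.) All aged STD mice were below all young STD mice in this tile. The difference was -10.9 points with a standard error of 1.70 (adjusted p = 0.192), and the aged ENR mean was 5.85% ± 4.31 (SD, n = 8).

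A promoter tile of Eno2, the neuron-specific enolase of glycolysis, was also among the 10 (chromosome 6, 124767000 to 124767999, midpoint 391 bp downstream of a start site, 5 rows). Its 6 young STD mice lay between 0% and 67.3% (median 40%). Of the 8 aged STD mice, 7 read 0% and replicate 6 read 5.92%. The groups overlapped, because 1 young mouse also read 0%, and the difference of -37.3 points did not pass (adjusted p = 0.803).

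The other 6 tiles of this group lay near noncoding or pseudogene models. The tile nearest Gm10042 had 9.09% to 65.4% in young and 0% to 2.84% in aged STD mice, without overlap, and the tile nearest Gm29483 had 29.3% to 100% and 0% to 26.5%, also without overlap. The tile in an intron nearest Gm48025 held 16 rows and differed by -17.1 points, and those nearest 1700029M03Rik, Gm43606 and Gm5830 by -30.8, -38.5 and -45.9 points. Their adjusted p ranged from 0.513 to 0.81.

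**Figure D2:**
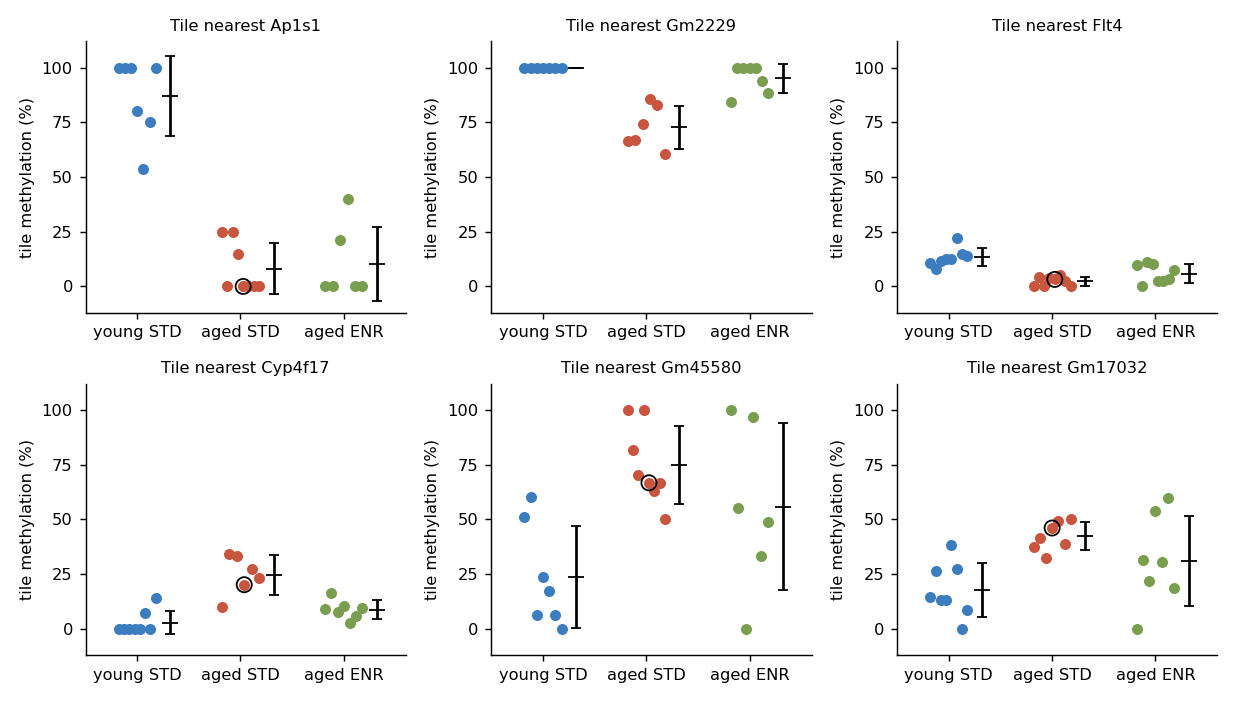
Tile methylation (%) of every mouse with a value, grouped as young STD, aged STD and aged ENR, for the 3 tiles with the smallest p that were lower (upper row) and higher (lower row) in aged STD mice, with the mean and SD beside the points and aged STD replicate 5 circled. In the upper row no aged STD mouse reaches the lowest young STD mouse, and in the lower row the groups overlap.

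Of the tiles higher in aged STD mice, none passed, and the smallest adjusted p was 0.544. It belonged to the promoter tile of Cyp4f17, a cytochrome P450 of the fatty acid hydroxylase family (chromosome 17, 32506000 to 32506999, midpoint 9 bp from a start site, 7 rows). Of 8 young STD mice, 6 read 0%, replicate 6 read 7.13% and replicate 8 read 14.1%. The 6 aged STD mice lay between 9.68% and 34.3% (median 25.3%), so that the groups overlapped in 1 mouse of each. The difference was 22.0 points with a standard error of 3.78, and the aged ENR mean was 8.74% ± 4.18 (SD, n = 7).

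The tile nearest Gm45580, a long noncoding RNA, showed the largest higher difference of all tiles, 51.3 points with a standard error of 10.3 (adjusted p = 0.803). Young STD mice lay between 0% and 60.2% (median 17.3%), and aged STD mice between 50% and 100% (median 68.5%.) The aged ENR mice covered 0% to 100% in this tile of 3 rows. A tile of 10 rows, 25048 bp upstream of Gm17032, had a young median of 13.7% and an aged median of 41.6%, with overlapping groups, and did not pass the test (24.7 points, adjusted p = 0.803).

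Of the remaining tiles higher in aged mice, 3 had a protein-coding gene as the nearest one. A promoter tile of Nrg2, a neuregulin that signals through ErbB receptors, had 46.8% to 80% in young and 78.7% to 94.2% in aged STD mice (23.0 points, adjusted p = 0.803). Its midpoint lay 106 bp upstream of a start site inside the gene, nearer to the 3' end of Nrg2 than to its 5' end. A tile in an intron of Sdk1, the synaptic adhesion molecule sidekick 1, had 11.1% to 62.7% in 6 young and 60% to 100% in 8 aged STD mice (44.4 points, adjusted p = 0.932). The tile 13314 bp upstream of Adamts20, a secreted metalloprotease, had 20% to 49.8% and 54.6% to 100%, without overlap (34.9 points, adjusted p = 0.932). The tile nearest Gm45169 did not overlap either, and those nearest Gm26512, Gm29441 and 4833407H14Rik differed by 24.2, 25.5 and 45.0 points. With row means removed, the last was 25.6 points. In all 20 tiles described, the direction remained without aged STD replicate 5 wherever the tile could be fitted, which left out Cyp4f17 and Gm45169 for lack of a sixth aged mouse. The tiles of Nrg2 and Gm2229 had no value in that mouse and could not change.

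The mean level over the 16703 tiles shared by all mice was 34.5% ± 0.699 in young and 34.0% ± 1.35 in aged STD mice (SD, n = 8 each). Young STD mice lay between 33.7% and 36% (median 34.4%), and aged STD mice between 30.9% and 35.4% (median 34.3%.) The difference of -0.524 points did not exceed the spread within the groups (exact permutation test, two-sided, p = 0.416), and it was -0.0722 points without aged STD replicate 5, the lowest mouse (exact permutation p = 0.824). Without young STD replicate 8, and with the shared tiles chosen again, it was -0.316 points (exact permutation p = 0.757). Over the 13891 tiles shared by all 24 mice, the young STD mean was 32.2% ± 0.605, that of aged STD mice 31.7% ± 1.25 and that of aged ENR mice 31.3% ± 0.306 (SD, n = 8 each).

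Tiles were next divided by level, composition and position into 9 overlapping classes, since age-related change is often described as opposite in unmethylated and methylated DNA. With all 16 mice no class differed between the ages (exact permutation tests, adjusted p over the 9 classes from 0.555 to 0.9997). In 9415 tiles under 20%, the mean was 4.57% ± 0.387 in young and 4.38% ± 0.364 in aged STD mice. In 3154 tiles at 20 to 80% it was 48.4% ± 2.43 and 46.2% ± 4.38 (SD, n = 8 each), with aged STD replicate 5 at 36.3%. Island-like tiles, 4701 in number, averaged 3.71% ± 0.132 and 3.78% ± 0.156, and the 7933 promoter tiles 10.4% ± 0.342 and 10.3% ± 0.485. Exon, intron and intergenic tiles averaged 52.5%, 52.9% and 60.1% in young and 51.7%, 51.6% and 59.4% in aged STD mice. Their differences of -0.813, -1.27 and -0.643 points were -0.198, -0.515 and 0.0632 without aged STD replicate 5, and those at 20 to 80% and in promoter tiles went from -2.18 to -0.765 and from -0.102 to 0.0605.

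Differences in most classes moved with aged STD replicate 5. In 4134 tiles over 80%, young STD mice lay between 91.5% and 92.6% (median 92.3%). Aged STD mice had a median of 92.8%, a highest value of 92.9%, and replicate 5 at 88.6%, with the other 7 at 92.3% or above. With all mice the difference was -0.00412 points (exact permutation p = 0.9997, adjusted p = 0.9997). Without replicate 5 the aged mean was 92.7% ± 0.208 (SD, n = 7) against 92.2% ± 0.377 (SD, n = 8), a difference of 0.518 points (exact permutation p = 0.00435, adjusted p over the 9 classes = 0.0392). The age groups still overlapped.

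This small difference in methylated tiles was examined further without replicate 5, with alternatives chosen after its value had been seen. When the class was instead set by the aged ENR mice, which are in neither group, it was 0.513 points over 4150 tiles (exact permutation p = 0.00575). Over the 5750 tiles shared by the other 15 mice it was 0.53 points (exact permutation p = 0.00155). Leaving out each of those 15 mice as well gave 0.416 to 0.585 points (exact permutation p from 0.00167 to 0.011). In island-like tiles the difference without replicate 5 was 0.122 points (exact permutation p = 0.0645, adjusted p = 0.29).

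**Figure D3:**
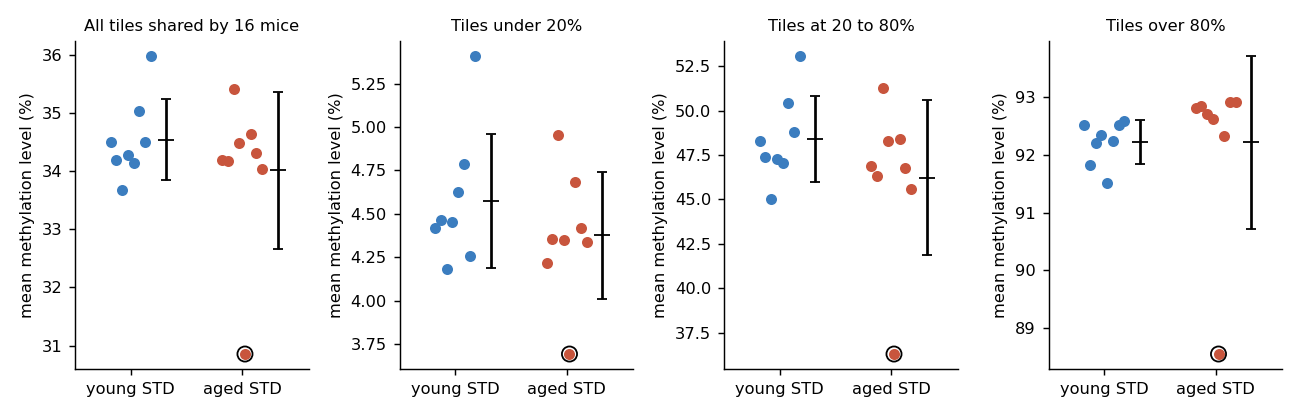
Mean methylation level (%) of each young STD and aged STD mouse over tiles with a value in all 16 mice, for all such tiles and for 3 classes of level, with the mean and SD beside the points. The vertical axes do not start at 0, and aged STD replicate 5 (circled) is the lowest mouse in each panel, at 88.6% in tiles over 80%, where the other 7 aged STD mice are at 92.3% or above.

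The share of tiles between 20% and 80% was 18.3% ± 1.01 in young and 17.2% ± 1.10 in aged STD mice (SD, n = 8 each), a difference of -1.14 points (exact permutation p = 0.0513). It ranged from 17.3% to 20.1% in young and from 15.9% to 19.1% in aged STD mice, so the groups overlapped. Without replicate 5 the difference was -1.002 points (exact permutation p = 0.0922). The share of tiles at exactly 0% or 100% ran from 23.3% to 45.6% in young and from 12.3% to 54.2% in aged STD mice, with similar means of 37.7% and 38.7% (exact permutation p = 0.861). The lowest and the highest share belonged to aged STD replicates 6 and 8, which had the most and the fewest covered autosomal rows of the 16 mice, 572058 and 312317.

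Larger differences between individuals in aged animals were looked for in 3 ways. The deviation score, the mean absolute distance of a mouse from the median of the 16 mice over the shared tiles, was 6.73 ± 0.493 points in young and 6.98 ± 1.15 points in aged STD mice (SD, n = 8 each). Young STD mice ranged from 5.71 to 7.26 points, and aged STD mice from 4.65 in replicate 6 to 8.21 in replicate 5, on both sides of the young range. The means differed by 0.254 points (exact permutation p = 0.59), and by 0.0851 points without replicate 5 (exact permutation p = 0.861). Without aged STD replicate 6, the lowest, and with the shared tiles chosen again, they differed by 0.566 points (exact permutation p = 0.0845).

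Across tiles, the variance between aged STD mice was larger in 50.7% and that between young STD mice in 48.6%, and the median log2 ratio of aged to young variance was 0.04. Over the same tiles without replicate 5, aged variance was larger in 48.4% and the median log2 ratio was -0.04. When each mouse was left out in turn and the tiles chosen again, the ratio lay between -0.05 (without aged STD replicate 8) and 0.22 (without aged STD replicate 6), and with all 8 mice of both groups required it was 0.12. The SD between mice differed far more by the level of a tile than by age, with medians of 3.63 points in young and 3.64 in aged STD mice for tiles under 20%, 23.4 and 24.7 points at 20 to 80%, and 8.93 and 8.90 points over 80%. The ratio was largest in tiles at 20 to 80% (0.15), where it fell to 0.05 without replicate 5, and in tiles over 80% it turned from 0.02 to -0.17. In island-like tiles it was 0.06 with and without that mouse. Tiles of 3 to 4 rows had median SDs of 14.1 and 14.2 points, and tiles of 20 or more rows 2.10 and 2.18 points.

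**Figure D4:**
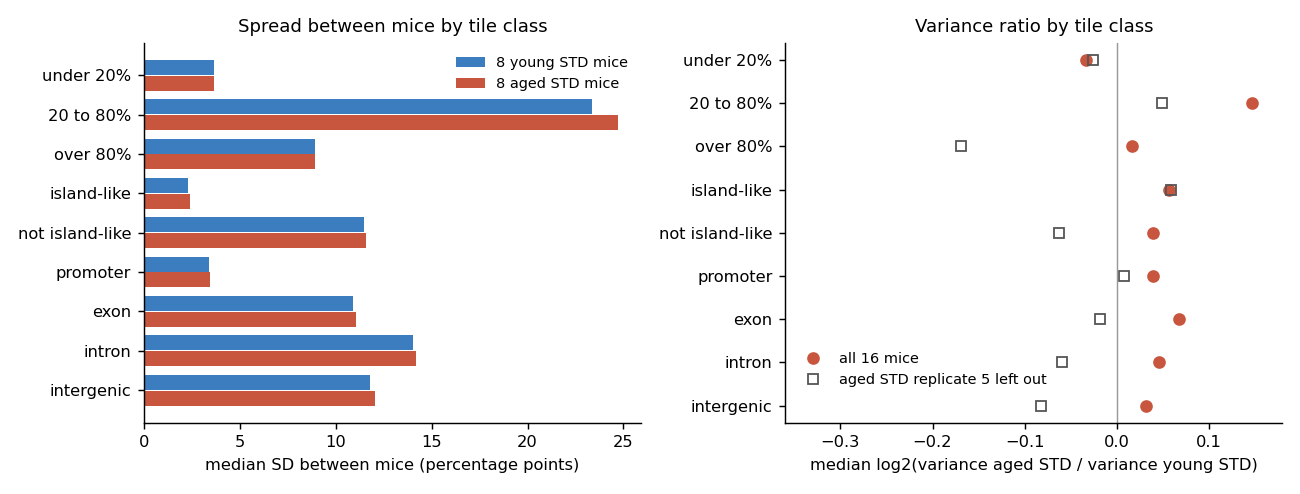
Left, median SD between mice (percentage points) of 9 overlapping tile classes in 8 young STD and 8 aged STD mice. Right, median log2 ratio of aged STD to young STD variance in the same classes with all 16 mice (filled) and without aged STD replicate 5 (open). Bars of both ages are nearly equal in each class, and leaving out the mouse moves tiles over 80% from 0.02 to -0.17.

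Tile by tile, a limma test on the absolute deviations from the group median called 12 of 47188 tiles (0.0254%), 6 with a larger and 6 with a smaller spread in aged STD mice. The count was 3 with row means removed, 2 with 3 or more rows per mouse and 41 with tiles of 1 or more rows. At an unadjusted p under 0.05, 939 were larger and 1075 smaller. Several calls rested on a group without any spread. A tile of Ncstn, which encodes the nicastrin subunit of gamma-secretase, read 100% in each of 6 young mice and 50% to 100% in 6 aged STD mice (adjusted p = 0.00419). It counted as a promoter tile because its midpoint lay 777 bp upstream of a start site inside the gene. That site is nearer to the 3' end of Ncstn than to its 5' end. A tile nearest Gm42894 read 0% in each of 7 young mice and 0% to 14.3% in aged STD mice (adjusted p = 0.00277). Its aged values were split evenly between 0% and 14.3%, all equally far from their median of 7.14%. Neither group thus left the test any residual spread in that tile. A tile nearest Gm11621 read 100% in 8 young and 75.8% to 100% in aged STD mice. The tile nearest BC043934, with 3 rows, covered 50% to 100% in young and 0% to 100% in aged STD mice, and that of Gm43002 93.9% to 100% and 78.4% to 100%. Without replicate 5, the 3 nearest Gm11621, BC043934 and Gm43002 did not pass and Gm42894 could not be fitted, and the Ncstn tile had no value in that mouse.

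Of the 5 leading tiles with a smaller spread in aged mice, 4 lay in protein-coding genes. A promoter tile of Bcl9l, a coactivator of beta-catenin, ranged from 0% to 20% in 6 young and from 0% to 2.80% in 6 aged STD mice (adjusted p = 0.00277). Its midpoint lay 98 bp downstream of a start site inside the gene. The young values were split evenly between 0% and 20%, all equally far from their median of 10%. This left the test little residual spread, and a p this small partly reflects that. A tile in an intron of Grip1, the scaffold that binds AMPA receptors, had 83.3% to 100% in young and 97.3% to 100% in aged STD mice (adjusted p = 0.00692). A tile in an intron of Adgrl2, the adhesion receptor latrophilin 2, had 0% to 57.9% and 0% to 19% (adjusted p = 0.0178), and a tile in an exon of Kank1, a regulator of the actin cytoskeleton, 75% to 100% and 94.4% to 100% (adjusted p = 0.02). The fifth, nearest Gm49539, had 0% to 100% and 0% to 25.6%. Those of Grip1, Gm49539 and Kank1 also passed without replicate 5, Bcl9l could not be fitted, and Adgrl2 had no value in that mouse.

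Tiles that differed much between mice often did so at both ages. Of 8285 tiles with at least 10 rows and a value in all 16 mice, 305 had an SD over 20 points in young and 364 in aged STD mice, and 124 in both. Across 8140 such tiles with some spread in each group, the log2 SD of young and of aged mice correlated with r = 0.61, a description that level and row number share. Ranked by the smaller of the SDs of the 2 ages, the first was a promoter tile of Trpm6, a magnesium channel (chromosome 19, 18749000 to 18749999, 17 rows), with 5.82% to 100% in young (median 36.9%) and 0% to 100% in aged STD mice (median 22.6%). Tiles in introns of Agap1, a regulator of Arf GTPases, and of Kif5c, a neuronal kinesin, and a promoter tile of Wnk4, a kinase that regulates ion transport, came next, with SDs from 31.6 to 35 points in young and from 33 to 34.5 points in aged STD mice.

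Correlations between whole profiles were of like size within and between ages. Over the shared tiles Pearson's r between mice had a median of 0.902 for the 28 pairs of young STD mice, 0.887 for the 28 pairs of aged STD mice and 0.894 for the 64 pairs across ages, all over the same 16703 tiles. Without replicate 5 the last 2 medians were 0.891 and 0.897. The first 3 principal components carried 10.3%, 9.63% and 8.64% of the variance, and each had 1 aged STD mouse far from all others, replicate 5, replicate 8 and replicate 1 in turn. These had fewer covered autosomal rows (370372, 312317 and 350315) than any young STD mouse, and so did aged STD replicate 3 with 371319. The part of coverage in this was not tested.

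Of the 3 components, the third differed between the ages. Its scores lay between -313.3 and -67.3 at the young age (median -191.4) and between -172.3 and 1801 at the old age (median -60), with overlap (exact permutation p = 0.00326, adjusted over the 3 components 0.00979). The difference of the means was 379.1. Without replicate 1, which had the score of 1801, it was 148.9 on the same component, which was not recomputed for the remaining mice, with an aged mean of -40.7 ± 113.9 (SD, n = 7) against -189.5 ± 70.8 (SD, n = 8) (exact permutation p = 0.00559). The first and second components did not pass (exact permutation tests, adjusted p = 0.403 and 0.76).

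Promoter tiles of 12 gene lists were then read against all 17166 promoter tiles, where an unadjusted p under 0.05 was reached by 183 higher and 230 lower tiles (2.41% together), with a median difference of 0. No tile of any list passed the limma test with adjustment, against 0.00212% of all tiles. The developmental transcription factors, patterning genes that are mostly silent in neurons, had 83 tiles at 29 of 30 genes, 76 of them under 20%. Of the 83, 53 were higher and 30 lower in mean, where all promoter tiles divided into 8582 and 8405 and the 33 tiles of activity-induced genes into 23 and 10. The median difference was 0.951 points, and 2 were higher at an unadjusted p under 0.05. The 2 were tiles of Six3, a forebrain and eye regulator, with 0% to 2.21% in young and 0% to 13.3% in aged STD mice (4.98 points, adjusted p = 0.932), and of Lhx1, a LIM homeodomain factor, with 0% to 1.52% and 0% to 6.12% (2.46 points, adjusted p = 0.932). The other tiles of Six3 differed by 2.25 and -0.591 points, and those of Lhx1 from -1.62 to 5.4 points. The 3 tiles of Foxd3, a neural crest regulator, had -9.04, -1.41 and 5.41 points. The median without replicate 5 was 0.87 points.

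Lists of neuronal function had smaller median differences. Among 37 tiles of the granule neuron lineage and neurogenesis, the median difference was -0.263 points (0.00429 without replicate 5) and 1 tile was higher at an unadjusted p under 0.05. It lay at Bcl11b, a zinc finger factor of postmitotic neurons, with 0% to 4.67% in young and 1.52% to 9.72% in aged STD mice (2.96 points, adjusted p = 0.932), and the adjacent tile of the same gene differed by -1.54 points. The 3 tiles of Tgfb2 differed by 2.62, 0.16 and 0.0924 points, and those of Prox1, the homeobox factor of granule neuron identity, by 1.99, 1.14 and -0.159 points. Of 33 tiles of activity-induced genes, all under 20%, none had an unadjusted p under 0.05 and the median was 0.238 points (0.503 without replicate 5). Npas4, a transcription factor induced by neuronal firing, had the smallest p, with 3.05% to 29.0% in young and 0% to 19% in aged STD mice, and Arc differed by 2.77 points. The 2 tiles of Fos differed by 2.94 and -1.79 points.

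Among 47 tiles of glutamate receptors and synaptic scaffolds the median was 0 (0.128 without replicate 5), and 1 tile was lower at an unadjusted p under 0.05. It belonged to Dlg4, which encodes the postsynaptic scaffold PSD-95 (chromosome 11, 70043000 to 70043999, 4 rows). Young STD mice lay between 26.8% and 64.1% (median 40.4%), and aged STD mice between 0% and 37.5% (median 18.5%.) The groups overlapped, and the difference of -22.6 points did not pass (adjusted p = 0.932). The other Dlg4 tile had the opposite sign, with a mean of 5.72% in young and 17.0% in aged STD mice, 11.3 points apart and not past an unadjusted p of 0.05. The 2 tiles of Grin2d, an NMDA receptor subunit, had -7.88 and -5.69 points, and those of Shank1, a postsynaptic scaffold, -2.71 and 1.19 points.

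Imprinted genes, where 1 parental copy carries methylation from the germline, had 4 of their 22 tiles under 20%. The median SD between mice was 24.9 points in young and 26.5 in aged STD mice, near the 23.4 and 24.7 points of all tiles at 20 to 80%. Differences ran from -40.1 to 30.9 points with a median of -1.06 (0.159 without replicate 5). At an unadjusted p under 0.05, 2 tiles (9.09%) were lower, where 6.36% of all tiles at 20 to 80% reached that p in either direction. A tile of Plagl1, a zinc finger regulator of growth, had 47.0% to 90.4% in young and 32.6% to 79.3% in aged STD mice (-19.5 points, adjusted p = 0.932), and its others differed by -1.18 and 14.3 points. A tile of Mcts2 had 7.87% to 100% and 0% to 47.1% (-40.1 points, adjusted p = 0.932), and a tile of the same promoter region 1 window away differed by -0.546 points. The 4 tiles of Zrsr1 differed by 29.8, 6.75, -13.8 and -20.7 points. Tiles of the same imprinted region could thus have differences of opposite sign.

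Loci used in age clocks of other tissues had 8 tiles at 7 of 9 genes, with a median difference of 0.0507 points (0.268 without replicate 5) and none with an unadjusted p under 0.05. The tile of Klf14, a transcription factor, had 0% to 20% in young and 0% to 6.34% in aged STD mice, and those of Kcns1 and Fhl2 differed by 13.3 and -2.16 points. Immune genes had 5 tiles at 4 of 15 genes, with a median of 3.82 points and none under that p. In the tile of H2-K1, an MHC class I gene, the aged STD mice lay between 0% and 100% (median 2.10%), and Tlr2 differed by 3.82 points, the tiles of H2-D1 by 6.98 and 1.67 points and that of C4b by -13.3 points.

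Markers of the cell types that bulk tissue can hold were at low levels for the most part, and these levels do not tell the cell types apart. All 8 tiles of granule neuron markers and all 7 of oligodendrocyte markers were under 20% when both ages were averaged. Medians of the differences were 0.52 points for granule neuron, 0.197 for oligodendrocyte, 1.06 for astrocyte and 1.51 for endothelial markers. Without replicate 5 these medians were 0.519, 0.316, 0.0427 and 1.05 points. Of the granule neuron tiles, 5 had a higher and 3 a lower mean in aged mice, from 5.15 points at Rbfox3 to -1.24 points at C1ql2, whose other tile differed by 0.501 points. The oligodendrocyte tile of Olig1 had 0% to 0.679% in young and 0% to 16% in aged STD mice (4.4 points, adjusted p = 0.932), that of Cnp 6.79 points and those of Mbp -14.7 and 0.197 points, and both tiles of Sox10 were lower in mean. Among 8 astrocyte tiles, 1 was lower at an unadjusted p under 0.05, that of the water channel Aqp4, with 25.3% to 71.5% in young and 0% to 60.6% in aged STD mice (-17.0 points). Of the others, 5 had a higher mean, up to 5.04 points at Gja1, Slc1a3 differed by 1.53 points, and the 3 tiles of Slc1a2 by -4.41, -7.48 and 0.583 points. P2ry12 was the only microglial gene with a tile (11.1 points), and the endothelial tile of Cldn5 differed by -2.25 points. The 4 tiles of Flt1 differed by 18.8, -7.91, 2.12 and 1.51 points. The part of cell mixture in the tile differences was not tested.

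**Figure D5:**
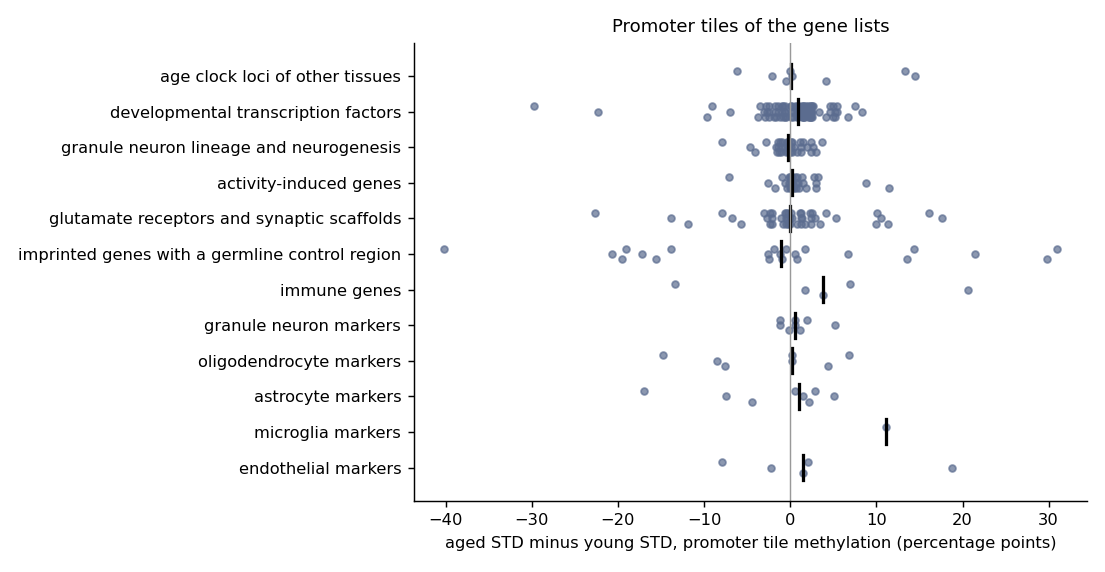
Difference between aged STD and young STD mean methylation (percentage points) of each promoter tile, by gene list, with the median as a bar. Most lists lie close to 0, and imprinted genes run from -40.1 to 30.9 points in both directions.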

How the data were processed

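Bisulfite libraries of 24 mice, 8 per group, were available. Per the labels' processing notes, the authors used Trim Galore 0.4.0, cutadapt 1.8.1, Bismark 0.16.1 on mm10 and methylKit 1.5.2, whereas the methods of the study name other releases of Trim Galore and Bismark. The authors deposited methylation as percent methylated reads per cytosine, strand and mouse, after a filter of 10 or more reads on each value and of 3 or more mice per group. Read numbers are not in that table, so the depth behind a percentage is unknown and no counting interval is given, and the number of covered rows per mouse is used as the measure of coverage.

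The 672847 autosomal rows, of which 672834 lay at a CG of GRCm38, were averaged into tiles of 1000 bp per mouse. Genes, exons and start sites came from GENCODE M21. Tiles were compared with limma 3.58.1 in R 4.3.3 (aged STD against young STD, moderated variances, Benjamini-Hochberg adjustment over all tiles), and a tile was called below an adjusted p of 0.05 when its means were over 10 points apart. The spread was tested in the same way on absolute deviations from group medians, scaled for the number of mice with a value. Every adjusted p of a tile is from limma. For per-mouse scores, the difference of means was set against all 12870 relabelings of the mice (6435 without 1 mouse) in an exact permutation test, two-sided. Scripts were tested on simulated data. Python 3.11.15, numpy 2.4.6, pandas 2.3.3, scipy 1.17.1 and pysam 0.24.0 were used.

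The tiles named are the 10 with the smallest p in each direction among those differing by over 10 points, the 5 with the smallest p for a larger and a smaller spread, and the 3 genes of each list whose promoter tile had the smallest p. The most variable tiles, the principal components and the rows of the leading tile were added after values had been seen. The members and lists were chosen with earlier results of these data known. Same-numbered mice are different animals, and their deviations from the group means correlated between -0.0329 and 0.0296, so the numbers do not pair them. A tile mean can shift when mice have values at different rows of a tile, which an alternative with row means removed addresses. Labels give the mice as separate animals by number only. Some items chosen by these rules are not reported here.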

Additional observations from a re-analysis of the deposited data

Results flagged for a closer look

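Of 34 groups of scores per mouse examined for a mouse far from the others of its group, 11 cases were found, all in aged STD mice. Chance gives about 1 in 20 for independent groups, and many of these overlap in their tiles, so that rate is no measure for their number. Aged STD replicate 5 stood apart in 9 of them. Its mean level was 30.9% against a median of 34.3% over the 8 aged STD mice, its level was 36.3% (median 46.8%) in tiles at 20 to 80%, 88.6% (median 92.8%) in tiles over 80% and 41.6% (median 46.2%) in tiles that were not island-like. By position it was at 9.18% (median 10.4%) in promoter, 47.4% (median 52.2%) in exon, 46.3% (median 51.9%) in intron and 54.5% (median 59.9%) in intergenic tiles. Its score on the first principal component was 1896 against a median of -121.6. In island-like tiles and tiles under 20% it was not found apart.

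Aged STD replicate 8 had a score of 1909 on the second component (median -85.2), and aged STD replicate 1 a score of 1801 on the third (median -60). These 2 mice and replicate 5 were also among the 4 of the 16 with the fewest covered rows. Among 39 groups of the 20 tiles named for their level, 2 cases were found, against about 1 in 20 by chance. In the tile nearest Gm48025, young STD replicate 1 read 14.3% against a median of 29.2%, and in the Eno2 tile aged STD replicate 6 read 5.92% where the other 7 aged STD mice read 0%.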

How the results depend on the processing

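The call of the Ap1s1 tile was lost, leaving 0 calls, with a value required in all 8 mice of both groups, with 3 or more rows per mouse, with 500-bp tiles and with tiles shifted by 500 bp. In each of these the tile is dropped or cut apart by construction, since young STD replicate 6 has no value, only 4 mice of each group have 3 or more rows, and the plus-strand row lies 141 bp from the others. With the replicate block the count was also 0 and the Ap1s1 difference was -77.7 points (adjusted p = 0.202), and the numbers do not pair the mice. The count was 3 on the arcsine scale and 3 with 3 groups in the fit, 2 with the number of covered rows as covariate, and from 1 to 2 when each mouse was left out, with 2 without young STD replicate 3 or aged STD replicate 7. The added tiles were Gm2229 (adjusted p = 0.00264) and Gm10042 on the arcsine scale, Gm2229 and Cyp4f17 with 3 groups, and Gm2229 with the covariate.

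Calls of the spread numbered 3 with row means removed, 41 with 1 or more rows, 2 with 3 or more rows per mouse, 31 with 500-bp tiles, 26 with shifted tiles and 19 with strands averaged first, and from 3 (without aged STD replicate 3) to 23 (without aged STD replicate 6) when each mouse was left out. The cause was not tested. The median log2 variance ratio ran from -0.046 (without aged STD replicate 8) to 0.22 (without aged STD replicate 6), and was below 0 without aged STD replicate 1, 5, 7 or 8 or young STD replicate 5. Without aged STD replicate 5, the difference turned to 0.518 points in tiles over 80%, 0.0605 in promoter and 0.0632 in intergenic tiles. Over 80% it was 0.513 with classes set by aged ENR mice and 0.53 over tiles shared by the other 15 mice, both chosen after seeing the data.

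The mean level and the deviation score kept their direction and did not pass in any of 26 alternatives each, with the replicate block included (exact sign-flip p = 0.305 and 0.625). Unknown read depth and the 3 to 4 rows that 33.8% of the tiles hold limit what single tiles can show.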
